A study of Mus musculus with 4 samples.

Results

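The cells described here are Luminal Progenitor 1 cells of hyperplastic mouse mammary glands in which no RNA molecule of Csf3 was counted. Csf3 encodes granulocyte colony-stimulating factor, a secreted cytokine that drives the production of neutrophils. The cells were chosen by the authors' cell class, Luminal Progenitor 1, and by 0 unique molecular identifiers (UMIs, the molecules counted per gene and cell) of Csf3 in the raw counts. There were 3859 such cells among 15445 annotated cells of the series and 7626 annotated cells of its hyperplasia libraries. Of these, 1972 came from the PKA hyperplasia library and 1887 from the WT hyperplasia library. Both libraries were from MMTV-PyMT mice of 8 to 9 weeks, in which the mouse mammary tumor virus promoter drives polyoma middle T antigen in mammary epithelium. The PKA mice were labelled as PKA activated and the WT mice as wild type. PKA is protein kinase A, the cAMP-dependent kinase, and the labels do not state how it was activated, the strain, or how many mice went into a library. Mammary fat pads were dissociated with enzymes and sorted by flow cytometry before droplet capture, with the gate not described. Each group had 1 library, so no difference between PKA and WT had a replicate check, no test was made, and every interval below is a 95% interval of counting error that compares these libraries.

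Luminal progenitors line the inner layer of the mammary duct and give rise to the milk-secreting alveolar cells. They are known for the transcription factor Elf5, the receptor tyrosine kinase Kit, the lipopolysaccharide co-receptor Cd14 and milk protein genes, and they are a source of antimicrobial and acute phase proteins in the gland. Mature Luminal cells carry the receptors for estrogen, progesterone and prolactin, and Basal cells carry contractile proteins and the keratins Krt5 and Krt14. The annotation also holds a class Luminal Progenitor 2. The classes were made from these same genes and the marker values below are a description of what the classes hold.

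The cells made up 51.65% (50.05 to 53.25, exact Clopper-Pearson interval) of annotated cells in the PKA library and 49.55% (47.95 to 51.15) in the WT library. They held 5367109 UMIs in the PKA library and 5279920 in the WT library, with medians per cell of 2525 and 2614 UMIs, 1272 and 1307 genes, and 1.606% and 1.674% mitochondrial UMIs in the PKA and WT cells. In the PKA library they were set against 913 Luminal Progenitor 1 cells with Csf3, 454 Luminal Progenitor 2, 251 Mature Luminal and 228 Basal cells. In the WT library these groups held 835, 770, 116 and 200 cells. Levels are UMIs summed over the cells of a group and given in CPM, that is, scaled to the same total in every group. Of the annotated barcodes, 18 occurred in both libraries, 9 of them among the PKA cells described here and 6 among the WT cells, and leaving them out moved no count of genes by over 1.5 times.

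The luminal progenitor markers Csn3, Spp1, Saa1 and Cd14 were present at high levels in the Csf3-negative cells, and Aldh1a3 at a lower level. Csn3, the kappa-casein gene that stabilises milk micelles, was at 17965 CPM in PKA cells and 15364 CPM in WT cells. Luminal Progenitor 2 cells had 8411 CPM of Csn3 in the PKA library and 9036 CPM in the WT library, and Mature Luminal cells had 780 and 893 CPM. Spp1, encoding the secreted matrix protein osteopontin, was at 5223 CPM (5162 to 5284, exact Poisson interval) in PKA cells and 2335 CPM (2294 to 2376) in WT cells. Its level in Luminal Progenitor 2 cells was 794 CPM in the PKA library and 253 CPM in the WT library. Saa1, an acute phase serum amyloid, was at 6637 CPM in PKA cells and 3793 CPM in WT cells, against 3691 and 895 CPM in Luminal Progenitor 2 cells of the PKA and WT libraries. Cd14 was at 1078 CPM (1051 to 1106) in PKA cells and 1239 CPM (1209 to 1269) in WT cells. In Luminal Progenitor 2 cells Cd14 was at 282 CPM in the PKA library and 344 CPM in the WT library. Aldh1a3, a retinaldehyde dehydrogenase used to mark mammary progenitors, was at 260 CPM in PKA cells and 166 CPM in WT cells, and at 46.8 and 23.6 CPM in Luminal Progenitor 2 cells of the PKA and WT libraries. All of these markers were higher in the Csf3-negative cells than in any of the Luminal Progenitor 2, Mature Luminal and Basal groups of the same library. Csf3-positive Luminal Progenitor 1 cells held them too. With cells thinned at random to equal depth, an Aldh1a3 UMI was seen in 18.4% of Csf3-negative and 22.6% of Csf3-positive PKA cells. In WT cells these shares were 12.4% and 16.49%. For Spp1 they were 51.43% and 58.33% in PKA cells, and 31.25% and 37.56% in WT cells. The Cd14 shares were also higher in Csf3-positive cells, and those of Saa1 and Csn3 slightly lower.

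Elf5 was at 309 CPM in PKA cells and 269 CPM in WT cells, against 195 and 151 CPM in Luminal Progenitor 2 cells and at most 22.4 CPM in Mature Luminal and Basal cells. Kit was low throughout, with 63.7 CPM in PKA cells and 72.4 CPM in WT cells. Most markers of the Mature Luminal and Basal classes were low, but not all. The 15 mature luminal markers summed to 1103 CPM in PKA cells and 719 CPM in WT cells, of which Ly6d, a surface antigen, gave 949 and 619 CPM and Prlr 94.8 and 51.5 CPM. The 16 basal markers summed to 2419 CPM in PKA cells and 1680 CPM in WT cells, of which Lgals7, an epithelial galectin, gave 2188 and 1494 CPM. The progesterone receptor gene Pgr had 1.49 CPM in PKA cells and 0 UMIs in WT cells, where the interval reached 0.699 CPM, and 129 and 133 CPM in Mature Luminal cells of the PKA and WT libraries. Krt5 had 1.49 CPM in PKA cells and 0.379 CPM in WT cells, against 532 and 465 CPM in Basal cells. The basal regulator Snai2 had 0.373 CPM in PKA cells and 0.189 CPM in WT cells. Krt14 was higher than these, with 129 CPM in PKA cells and 92.0 CPM in WT cells, below the 4226 and 2972 CPM of Basal cells but above the levels in Mature Luminal cells. The 10 macrophage markers summed to 17.3 CPM in PKA cells and 17.6 CPM in WT cells, the 10 fibroblast markers to 8.20 and 4.92 CPM, and the 8 endothelial markers to 7.08 and 6.25 CPM. By these values the cells held the luminal progenitor markers that their class name implies. Not all markers of that list set them apart from Luminal Progenitor 2 cells (below).

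**Figure D1:**
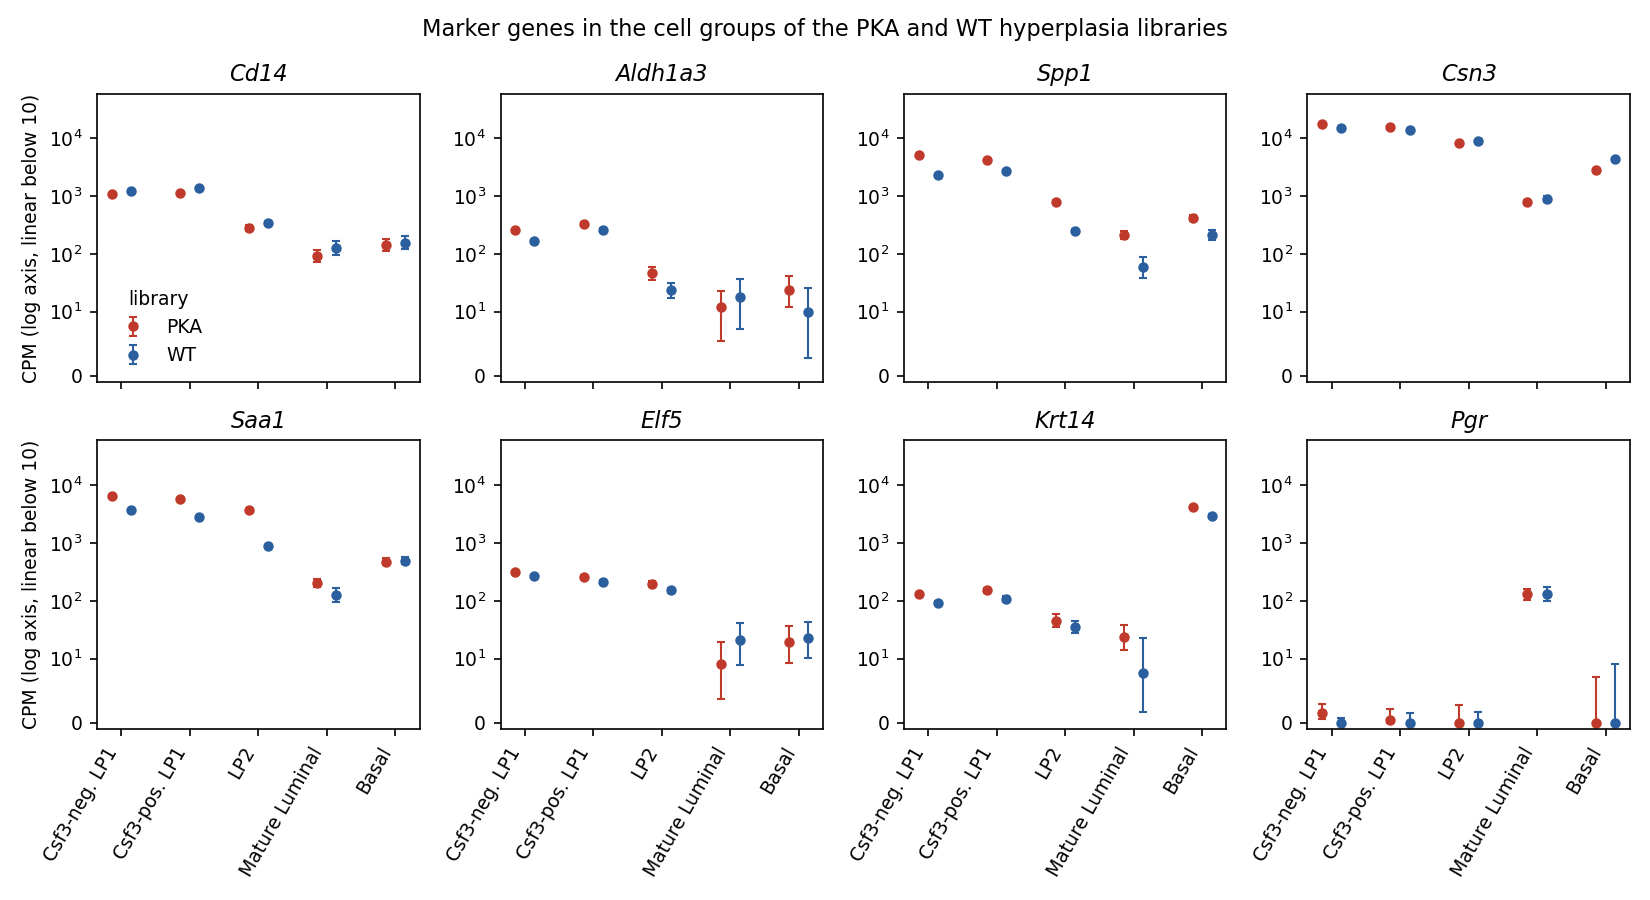
Levels of 8 marker genes in CPM (log axis, linear below 10) in each cell group of the PKA library (red) and the WT library (blue), with bars for the 95% exact Poisson interval. Cd14, Aldh1a3, Spp1, Csn3 and Saa1 are highest in the Luminal Progenitor 1 groups, Krt14 in Basal cells and Pgr in Mature Luminal cells.

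A count of 0 depends on how deeply a cell was read. Of all Luminal Progenitor 1 cells, 68.35% (66.62 to 70.05) in the PKA library and 69.32% (67.55 to 71.05) in the WT library had 0 Csf3 UMIs. With every cell thinned at random to 2000 UMIs and shallower cells left out, the share was 70.76% (68.77 to 72.69) of 2110 PKA cells and 71.67% (69.69 to 73.6) of 2090 WT cells. When the cells of a library were cut by depth into 4 equal groups, 73.72% of PKA cells and 74.89% of WT cells had 0 in the shallowest group, and in the deepest 62.5% of PKA cells and 61.97% of WT cells. The share without Csf3 was thus smaller in deeper cells of both libraries, and a cell with 0 UMIs need not lack Csf3 RNA. At 2000 UMIs, 29.24% of PKA and 28.33% of WT Luminal Progenitor 1 cells had a Csf3 UMI. This share was 15.58% (11.5 to 20.4) in PKA and 15.4% (12.2 to 19.0) in WT Luminal Progenitor 2 cells, and 20.0% (13.0 to 28.7) in PKA and 10.1% (4.47 to 19.0) in WT Basal cells. It was 12.64% (8.10 to 18.5) in PKA and 6.82% (2.54 to 14.3) in WT Mature Luminal cells, which were read to medians of 3051 and 3178 UMIs against 2588 and 2690 UMIs in all Luminal Progenitor 1 cells of the PKA and WT libraries. Just outside the rule, 283 PKA cells and 229 WT cells held exactly 1 Csf3 UMI, with medians of 2786 and 2933 UMIs.

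Beside Csf3 itself, the Csf3-negative cells differed from the Csf3-positive Luminal Progenitor 1 cells of their library in few genes. Of 3050 genes with at least 50 CPM in the higher group of both libraries, 13 were lower by over 2-fold in both libraries (0.426%) and 1 was higher (0.0328%). In the PKA library alone 16 of 3251 genes were lower (0.492%) and 1 was higher (0.0308%), and in the WT library alone 18 of 3305 were lower (0.545%) and 5 were higher (0.151%). Folds were taken as log2 ratios of (CPM + 10), a log2 of 1 being 2-fold, and Csf3 is among the 13 because the rule chose on it. Chemokine and NF-kB response genes were among the lowest. NF-kB is the family of transcription factors that turn on cytokine and chemokine genes after inflammatory signals. Cxcl1, a chemokine that attracts neutrophils, was at 403 CPM in Csf3-negative and 2370 CPM in Csf3-positive PKA cells, and at 148 CPM in Csf3-negative and 909 CPM in Csf3-positive WT cells. Cxcl2, a chemokine of the same kind, was at 42.7 CPM in Csf3-negative and 524 CPM in Csf3-positive PKA cells, and at 47.9 CPM in Csf3-negative and 375 CPM in Csf3-positive WT cells. In both libraries Cxcl1 and Cxcl2 were lower in the Csf3-negative cells by more than 5-fold.

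Nfkbia, the inhibitor that holds NF-kB in the cytoplasm and is itself an NF-kB target, was at 435 CPM in Csf3-negative and 1067 CPM in Csf3-positive PKA cells. In the WT library Nfkbia was at 469 CPM in Csf3-negative and 1144 CPM in Csf3-positive cells. Lif, a cytokine of the interleukin 6 family, was at 91.1 CPM in Csf3-negative and 354 CPM in Csf3-positive PKA cells, and at 103 CPM in Csf3-negative and 313 CPM in Csf3-positive WT cells. The other low genes by the naming rule were Tnfaip2, the RNase gene Zc3h12a, the growth factor gene Pdgfb, the adhesion gene Fermt1, the urokinase receptor gene Plaur, the AP-1 subunit gene Fosl1 and Nfkbiz. Of the NF-kB response list, 15 of 16 measured genes were below 0 in the PKA library and 15 of 16 in the WT library, 3 of them past 2-fold in each, with medians of -0.52 and -0.37. Over all genes compared the median was 0.03 in the PKA library and 0.03 in the WT library. Below 0 were 1385 of 3251 genes in the PKA library and 1390 of 3305 in the WT library.

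The 12 genes highest in Csf3-negative against Csf3-positive cells were Csn1s2a, Id2, Lalba, Scd1, Xbp1, Atf3, Map3k1, Trps1, Lmo4, BC006965, Pik3r1 and Hist1h2bc. Csn1s2a, an alpha-S2-type casein, was the 1 gene higher by over 2-fold in both libraries, with 212 CPM in Csf3-negative and 56.3 CPM in Csf3-positive PKA cells. In the WT library Csn1s2a was at 466 CPM in Csf3-negative and 218 CPM in Csf3-positive cells. Lalba, encoding the alpha-lactalbumin subunit of lactose synthase, was at 3705 CPM in Csf3-negative and 2084 CPM in Csf3-positive PKA cells, and at 2194 CPM in Csf3-negative and 1002 CPM in Csf3-positive WT cells. Id2, an inhibitor of basic helix-loop-helix factors that the gland needs for alveolar growth, was at 153 CPM in Csf3-negative and 72.3 CPM in Csf3-positive PKA cells, and at 143 CPM in Csf3-negative and 57.9 CPM in Csf3-positive WT cells. Scd1, a fatty acid desaturase, was at 737 CPM in Csf3-negative and 416 CPM in Csf3-positive PKA cells, and at 703 CPM in Csf3-negative and 392 CPM in Csf3-positive WT cells. Xbp1, a regulator of the secretory pathway, was at 353 CPM in Csf3-negative and 210 CPM in Csf3-positive PKA cells. Cd14 and Csn3 differed by less than 1.5-fold between the Csf3-negative and Csf3-positive cells of either library.

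Several of these genes were graded with the Csf3 count. In cells with 0, 1, 2 to 4, 5 to 9 and 10 or more Csf3 UMIs, Cxcl1 was at 403, 733, 1307, 2277 and 4664 CPM in the PKA library. Over the same steps Cxcl1 was at 148, 292, 504, 632 and 1845 CPM in the WT library. Lalba was at 3705, 2766, 2513, 1761 and 1315 CPM in the PKA library and at 2194, 1561, 1082, 542 and 685 CPM in the WT library. Cells with 1 Csf3 UMI lay between the Csf3-negative cells and those with more for Cxcl1, Nfkbia, Lif, Lalba and Id2 in both libraries, whereas Cxcl2 at 1 UMI was at 31.4 CPM in the PKA library, below its level at 0. Csn1s2a did not follow the steps, with 212, 46.0, 53.05, 109 and 42.5 CPM in the PKA library and 466, 588, 72.7, 70.0 and 73.8 CPM in the WT library.

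**Figure D2:**
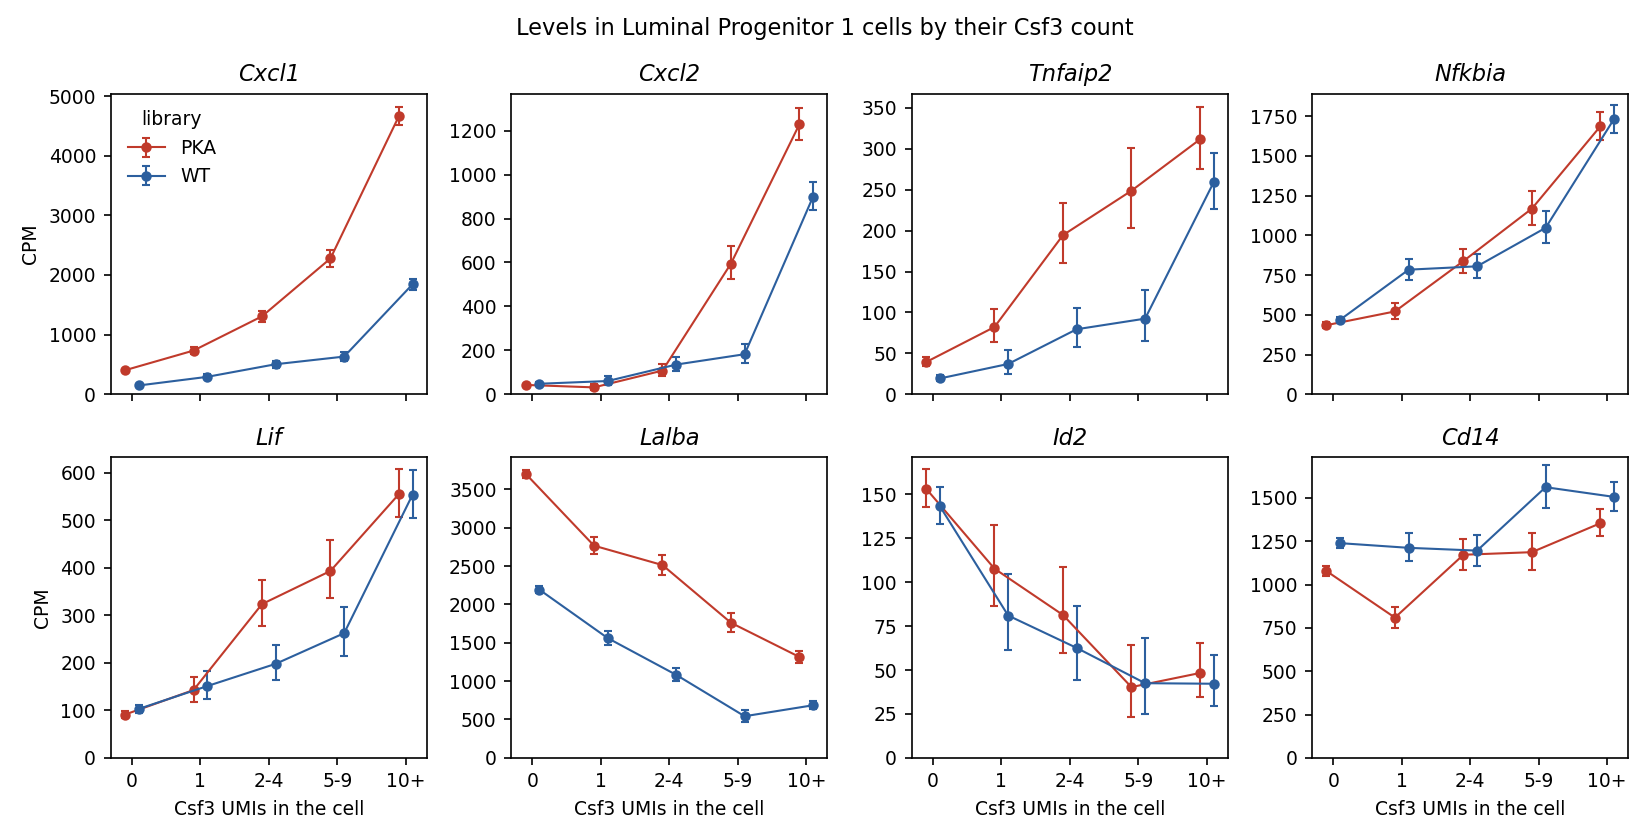
Levels in CPM (linear axes from 0) of 8 genes in Luminal Progenitor 1 cells grouped by their Csf3 count, for the PKA library (red) and the WT library (blue), with bars for the 95% exact Poisson interval. Cxcl1 runs from 403 CPM at 0 to 4664 CPM at 10 or more Csf3 UMIs in the PKA library and Lalba from 3705 to 1315 CPM, while Cd14 stays between 809 and 1562 CPM over both libraries.

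Promoters are shown for 3 genes picked among those low in Csf3-negative cells, Cxcl1, Cxcl2 and Nfkbia. Lif, Tnfaip2 and Zc3h12a also rose with the Csf3 count in both libraries but were not picked. The promoters of Saa1 and Saa2 are added because these genes varied together among the cells (below). Each sequence shown is the 250 bases before the RefSeq transcription start in GRCm38.p6, read 5' to 3' on the gene's strand, with matches on either strand to the NF-kB-type letters, GGG and TTCC with any 3 bases between them, or the C/EBP-type letters TTGCNNAA in capitals. Overlapping matches form 1 run of capitals.
Cxcl1 (chr5:90890995-90891244, plus strand): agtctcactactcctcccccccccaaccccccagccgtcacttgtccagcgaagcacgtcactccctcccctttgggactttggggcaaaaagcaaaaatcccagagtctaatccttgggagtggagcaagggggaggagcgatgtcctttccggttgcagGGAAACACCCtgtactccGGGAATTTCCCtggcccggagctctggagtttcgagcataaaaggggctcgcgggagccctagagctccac
Cxcl2 (chr5:90903649-90903898, plus strand): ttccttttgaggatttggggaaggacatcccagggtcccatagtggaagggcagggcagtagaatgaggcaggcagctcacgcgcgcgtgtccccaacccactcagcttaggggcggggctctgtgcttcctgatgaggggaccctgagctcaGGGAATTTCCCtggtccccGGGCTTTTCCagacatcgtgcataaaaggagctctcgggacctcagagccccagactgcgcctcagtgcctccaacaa
Nfkbia (chr12:55492648-55492897, minus strand): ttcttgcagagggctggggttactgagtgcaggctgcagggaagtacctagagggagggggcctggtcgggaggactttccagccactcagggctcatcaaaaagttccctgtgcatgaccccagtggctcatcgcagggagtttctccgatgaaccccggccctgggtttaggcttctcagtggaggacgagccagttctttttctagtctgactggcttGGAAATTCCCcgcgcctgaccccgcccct
Saa1 (chr7:46742981-46743230, minus strand): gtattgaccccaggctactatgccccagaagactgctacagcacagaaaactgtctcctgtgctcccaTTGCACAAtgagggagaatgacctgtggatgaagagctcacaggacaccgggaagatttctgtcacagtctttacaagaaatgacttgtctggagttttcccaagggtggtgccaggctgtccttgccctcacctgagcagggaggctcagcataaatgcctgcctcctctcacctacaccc
Saa2 (chr7:46751583-46751832, plus strand): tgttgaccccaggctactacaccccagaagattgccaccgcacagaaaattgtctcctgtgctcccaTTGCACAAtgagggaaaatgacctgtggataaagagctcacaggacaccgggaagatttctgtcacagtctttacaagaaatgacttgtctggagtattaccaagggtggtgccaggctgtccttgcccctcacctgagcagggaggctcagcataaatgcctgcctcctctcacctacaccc
Cxcl1 and Cxcl2 each held 3 NF-kB-type matches, which overlap in part, and Nfkbia held 1 that ends 20 bases before the start. In the same window of 250 bases before the start, these letters occur in 4.65% of 32851 RefSeq promoters. Of the 12 genes lowest against Csf3-positive cells, 8 had an entry and 4 of these held the letters (Cxcl1, Cxcl2, Fermt1 and Nfkbia). The 3 genes shown are thus among those with a match, and Csf3 itself had no entry. Of the 12 highest, 9 had an entry and none of their 12 promoters held the NF-kB-type letters. The C/EBP-type letters were held by 1 of the 8 low genes (Plaur) and 2 of the 9 high genes (Lmo4 and Xbp1). Saa1 and Saa2 each held 1 C/EBP-type match, letters found in 9.56% of promoters, and the 2 windows were identical at 238 of 251 aligned positions (94.8%). A match is a description of letters and not a measured binding site.

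Against Luminal Progenitor 2 cells, 60 of 3298 genes were higher in the Csf3-negative cells by over 2-fold in both libraries (1.82%) and 59 were lower (1.79%). In the PKA library alone 3.26% were higher and 3.18% lower, and in the WT library alone 2.56% and 2.28%. The higher genes were led by Spp1, Cbr2, Aldh1a3, Fxyd6, Crip1, Slpi and Ramp1, and also held Saa3, Cd14 and Mfge8. Cbr2, a carbonyl reductase, had 131 CPM in PKA and 112 CPM in WT Csf3-negative cells, against 12.1 and 11.6 CPM in Luminal Progenitor 2 cells of the PKA and WT libraries. Slpi, a secreted protease inhibitor, had 327 CPM in PKA and 269 CPM in WT Csf3-negative cells, against 65.7 and 55.6 CPM in Luminal Progenitor 2 cells. Fxyd6, a regulator of the sodium pump, had 199 CPM in PKA and 225 CPM in WT Csf3-negative cells, against 37.0 and 37.5 CPM in Luminal Progenitor 2 cells. These 3 genes were more than 4-fold higher in the Csf3-negative cells of both libraries.

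Csf3, which the rule set to 0, was counted among the 59 lower genes and ranked 2 among the 12 lowest. The secretoglobin gene Scgb1b27 had 132 CPM in PKA and 86.9 CPM in WT Csf3-negative cells, against 9717 and 5440 CPM in Luminal Progenitor 2 cells of the PKA and WT libraries. That is a level 73.9-fold lower in the PKA library and 62.6-fold lower in the WT library. The carbonic anhydrase gene Car6 had 107 CPM in PKA and 44.3 CPM in WT Csf3-negative cells, against 2661 and 929 CPM in Luminal Progenitor 2 cells. The water channel gene Aqp5 had 99.1 CPM in PKA and 66.7 CPM in WT Csf3-negative cells, against 400 and 309 CPM in Luminal Progenitor 2 cells. Thrsp, a regulator of lipid synthesis, and Scd2, a desaturase, were also among the 12 lowest. Of the luminal progenitor markers, 7 of 18 measured were past 2-fold higher in PKA cells and 6 of 17 in WT cells. None was past 2-fold lower, and the medians were 0.71 and 0.70. Below 0 were 1 of these markers in the PKA library and 4 in the WT library. Of all genes compared, 1934 of 3558 were below 0 in the PKA library and 1765 of 3551 in the WT library. Of the fatty acid and cholesterol synthesis list, 4 of 11 measured genes were past 2-fold lower in the PKA library and 3 of 12 in the WT library, none was past 2-fold higher, and the medians were -0.33 and -0.33. Of the acute phase and antimicrobial list, 6 of 13 measured genes were past 2-fold higher in the PKA library and 8 of 14 in the WT library, with medians of 0.84 and 1.44, and 1 was past 2-fold lower in the PKA library. Luminal Progenitor 2 cells had the higher mitochondrial share, with medians of 4.404% in the PKA library and 4.13% in the WT library, and its part in these differences was not tested.

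Mature Luminal cells were further away. Against them, 317 of 3531 genes were higher in the Csf3-negative cells by over 2-fold in both libraries (8.98%) and 325 were lower (9.2%). In the PKA library alone 12.1% were higher and 13.2% lower, and in the WT library alone 12.3% and 14.4%. All 18 measured luminal progenitor markers in the PKA library and all 17 in the WT library were past 2-fold higher, with medians of 3.51 and 3.20. All 9 measured milk genes in the PKA library and all 11 in the WT library were past 2-fold higher too, with medians of 2.96 and 3.07. Wfdc18, which encodes a secreted WAP-domain protein, had 30252 CPM in PKA and 27453 CPM in WT Csf3-negative cells, against 1621 and 1960 CPM in Mature Luminal cells of the PKA and WT libraries. Gpx3, a secreted glutathione peroxidase, had 3.91 CPM in PKA and 1.33 CPM in WT Csf3-negative cells, against 1690 and 2549 CPM in Mature Luminal cells. The prolactin receptor gene Prlr had 94.8 CPM in PKA and 51.5 CPM in WT Csf3-negative cells, against 3695 and 2580 CPM in Mature Luminal cells. Ptn, Cited1, Wfdc2, Plac8, Tph1, Cdo1, Agtr1a, Wnt4 and Fam25c were likewise low in the Csf3-negative cells. Mature Luminal cells had median mitochondrial shares of 3.805% in the PKA and 3.801% in the WT library. Their fibroblast markers summed to 122 and 609 CPM and their erythrocyte markers to 65.8 and 427 CPM. These values were above those of the Csf3-negative cells, and their part in this contrast was not tested.

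Against Basal cells, 201 of 3582 genes were higher by over 2-fold in both libraries (5.61%) and 407 were lower (11.4%). In the PKA library alone 8.23% were higher and 13.7% lower, and in the WT library alone 7.21% and 14.7%. Csf3 is again among the lower genes by the rule. The higher genes included Amtn, the neuropeptide gene Cck, Saa2, the tight junction gene Cldn3, Elf5 and the folate receptor gene Folr1. Cldn3 had 1124 CPM in PKA and 1323 CPM in WT Csf3-negative cells, against 115 and 102 CPM in Basal cells of the PKA and WT libraries. The lower genes included those of matrix and contraction. Acta2, smooth muscle actin, had 26.5 CPM in PKA and 16.1 CPM in WT Csf3-negative cells, against 6672 and 4354 CPM in Basal cells. Sparc, a matrix protein, had 14.9 CPM in PKA and 6.25 CPM in WT Csf3-negative cells, against 4551 and 5051 CPM in Basal cells. Of the basal marker list, 14 of 15 measured genes were past 2-fold lower in the PKA library and 14 of 15 in the WT library. The exception was Lgals7, with 2188 CPM in PKA and 1494 CPM in WT Csf3-negative cells, against 2421 and 2323 CPM in Basal cells. Fibroblast markers summed to 924 CPM in PKA and 1743 CPM in WT Basal cells, far above the sums in the Csf3-negative cells. Macrophage markers summed to 472 CPM in WT Basal cells but to 17.5 CPM in PKA Basal cells, against 17.3 CPM in PKA Csf3-negative cells. The part of these markers in this contrast, and in the PKA against WT values of Basal cells, was not tested.

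TMM scaling, which scales groups by a trimmed mean of gene ratios rather than by the total, moved the medians over all genes away from 0. Against Luminal Progenitor 2 the median went from -0.05 to 0.14 in the PKA library and from 0.005 to 0.13 in the WT library. Against Mature Luminal it went from -0.02 to 0.22 in the PKA library and from -0.06 to 0.30 in the WT library. Against Basal cells it went from -0.10 to 0.16 in the PKA library and from -0.04 to 0.22 in the WT library. The share of higher genes among those past 2-fold was then 70.9% in place of 50.42% against Luminal Progenitor 2, 70.26% in place of 49.38% against Mature Luminal and 49.59% in place of 33.06% against Basal cells. None of the 12 highest or 12 lowest genes of each contrast changed direction under it.

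By variance over mean, the spread among the Csf3-negative cells was widest for Saa1, Saa2, Wfdc18 and Spp1. The variance of a gene over cells divided by its mean, its Fano factor, was taken at 2000 UMIs per cell in 1402 PKA cells and 1411 WT cells, with 570 and 476 shallower cells left out. Over 1385 genes its median was 1.087 in PKA cells and 1.083 in WT cells, close to the 1 that counting alone gives. The 12 most variable genes over both libraries were Saa1, Saa2, Wfdc18, Spp1, Actb, Lalba, Saa3, Chil1, Csn1s2a, Scgb2b27, Csn3 and Cxcl1. Saa1 had a Fano factor of 76.4 in PKA cells and 65.3 in WT cells. A Saa1 UMI was seen in 56.85% (54.21 to 59.46) of PKA cells and 38.13% (35.59 to 40.72) of WT cells, with a median of 1 and 0 UMIs per cell and a maximum of 427 and 218. The 75th and 95th percentiles were 9 and 74.9 UMIs in PKA cells and 2 and 48.5 UMIs in WT cells, so that a small part of the cells held very high Saa1 counts.

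Wfdc18 and Csn3 varied around a high level, so their spread was smaller relative to their mean than that of Saa1. Wfdc18 had a Fano factor of 63.8 on a mean of 61.5 UMIs in PKA cells and 45.6 on 54.9 in WT cells. For Saa1 these values were 76.4 on 13.1 in PKA cells and 65.35 on 7.69 in WT cells. The median per cell was 41 UMIs in PKA and 40 UMIs in WT cells for Wfdc18, and 32 and 24 UMIs for Csn3, and a Csn3 UMI was seen in 97.93% of PKA cells and 97.59% of WT cells. Lcn2, encoding the iron-scavenging antimicrobial protein lipocalin 2, was as general, with a median of 37 UMIs in PKA and 31 UMIs in WT cells. Spp1 was patchy, with a UMI in 51.43% of PKA and 31.25% of WT cells and a 95th percentile of 64 and 28 UMIs. Lalba was seen in 61.27% of PKA and 38.7% of WT cells, and in 61.59% of PKA and 57.92% of WT Luminal Progenitor 2 cells. At the same depth a Cd14 UMI was seen in 69.76% of PKA and 71.51% of WT cells, and in 14.37% of PKA and 17.05% of WT Mature Luminal cells. Saa3, a serum amyloid made outside the liver, was seen in only 2.425% of PKA and 3.402% of WT cells but reached 28 and 66 UMIs in a cell.

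Over 91 pairs of these genes and the markers, the rank correlation over cells was highest for Saa1 with Saa2, at 0.63 in PKA cells and 0.59 in WT cells. These genes are near-identical copies on chromosome 7 (Saa1 at 46740497 to 46742980, Saa2 at 46751790 to 46754313, GRCm38) and the counting may share reads between them. Saa1 with the chitinase-like gene Chil1 gave 0.33 in PKA and 0.36 in WT cells, and Lalba with Csn3 gave 0.26 and 0.45. Wfdc18 and Spp1 ran against each other, at -0.30 in PKA and -0.25 in WT cells. The cells of a library share capture and depth, and these values are descriptions.

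**Figure D3:**
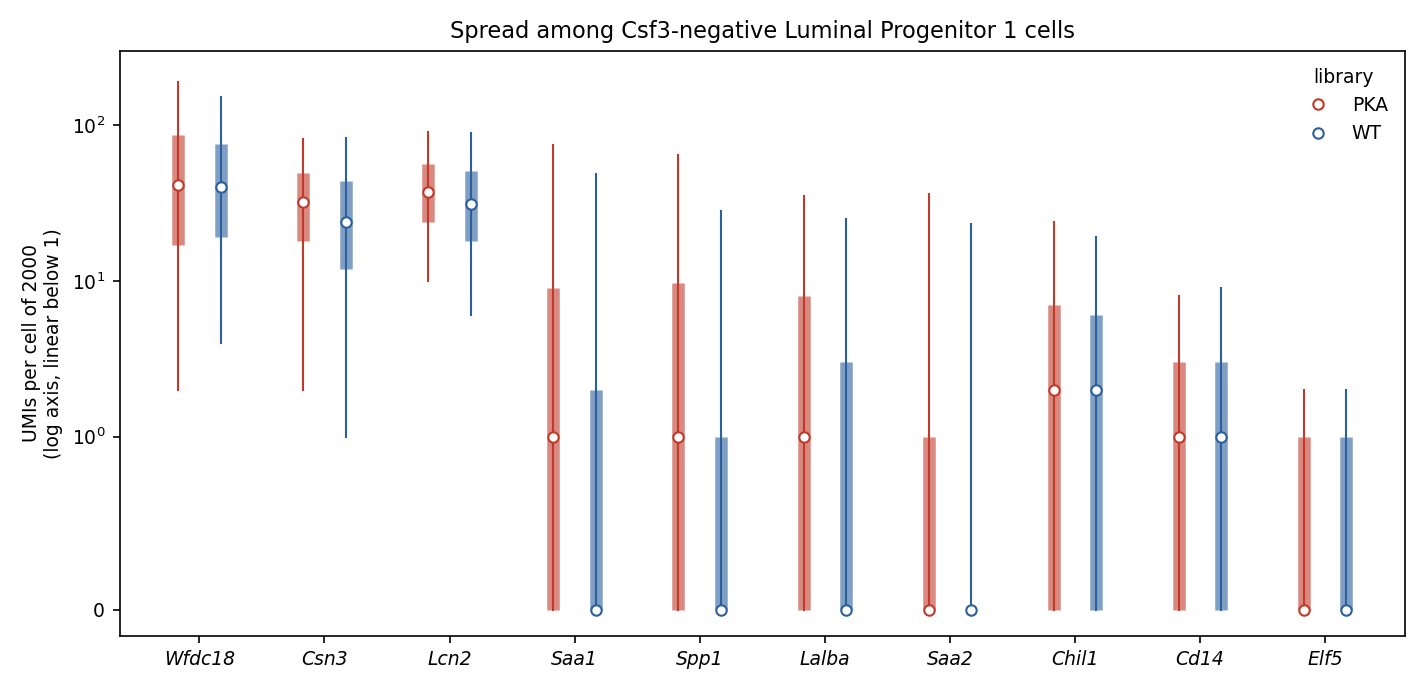
UMIs per cell at a depth of 2000 UMIs (log axis, linear below 1) of 10 genes in Csf3-negative Luminal Progenitor 1 cells of the PKA library (red) and the WT library (blue). Circles are medians, thick bars the middle 50% of cells and thin lines the 5th to 95th percentile; Wfdc18, Csn3 and Lcn2 have medians of 24 or more, while Saa1, Spp1 and Lalba have medians of 1 in PKA cells and 0 in WT cells.

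Between PKA and WT, most genes of the Csf3-negative cells were at like levels. Of 3347 genes with at least 50 CPM in the higher library, 21 were higher by over 2-fold in PKA cells (0.627%) and 38 were lower (1.14%), and the median over all was -0.02. In the Csf3-positive cells of the same libraries 21 (0.633%) and 33 (0.995%) of 3315 genes were past 2-fold higher and lower in PKA. The shares past 2-fold higher and lower were 0.424% and 0.934% in Luminal Progenitor 2, 3.62% and 3.96% in Mature Luminal and 1.35% and 2.53% in Basal cells. Mature Luminal cells held only 760233 UMIs in the PKA and 384139 UMIs in the WT library, and Basal cells 513036 and 402113 UMIs. The Csf3-negative cells held 5367109 and 5279920 UMIs. The part of counting error in the larger shares was not tested. The caseins Csn1s1 and Csn2 were the lowest of the named genes in PKA cells. The 12 highest genes of the naming rule were Bglap3, Scgb2b27, Cxcl1, Wfdc12, Wfdc17, Dmkn, Pdzk1ip1, Ly6a, Ltf, Spp1, Qsox1 and Mal2. The 12 lowest were Csn1s1, Csn2, Ubd, C3, Chchd10, Pgls, Fdx1, Hspb1, Marcksl1, Mrps24, Cavin3 and Gch1.

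Milk genes parted. Csn1s1, the alpha-S1-casein gene (chromosome 5, 87666208 to 87682578, GRCm38), was at 61.3 CPM (54.9 to 68.3) in PKA cells and 774 CPM (751 to 798) in WT cells, 12.6-fold lower in PKA. Csn2, the beta-casein gene next along the same chromosome (87692624 to 87699630), was at 46.6 CPM (41.0 to 52.7) in PKA cells and 561 CPM (541 to 582) in WT cells, 12.1-fold lower. Csn1s2a was at 212 CPM in PKA cells and 466 CPM in WT cells. Csn3, at 87925579 to 87932665 on that chromosome, went the other way, with 17965 CPM in PKA cells and 15364 CPM in WT cells, a log2 ratio of 0.23. Lalba was also higher, with 3705 CPM in PKA cells and 2194 CPM in WT cells (0.75). Fewer PKA cells held the 2 low caseins. At 2000 UMIs a Csn1s1 UMI was seen in 3.566% (2.658 to 4.675) of PKA cells and 22.11% (19.97 to 24.37) of WT cells, and a Csn2 UMI in 1.712% of PKA cells and 8.575% of WT cells.

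The low caseins were not limited to the Csf3-negative cells. Csn1s1 had 42.8 CPM in PKA and 756 CPM in WT Csf3-positive cells, at 47.6 and 478 CPM in Luminal Progenitor 2, at 6.58 and 62.5 CPM in Mature Luminal and at 15.6 and 162 CPM in Basal cells. RNA free in the suspension adds UMIs of abundant genes to all droplets, and its part in the levels of the other classes was not tested. Of the 12 lowest genes, 11 were lower in PKA in all 4 other groups and 9 were past 2-fold lower in all 4. Of the 12 highest, 7 were higher in PKA in all 4 other groups and 1, Ltf, was past 2-fold higher in all 4. These groups come from the same 2 libraries and are not further replicates.

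Among the other low genes, Ubd, a ubiquitin-like modifier, was at 5.78 CPM (3.93 to 8.20) in PKA cells and 103 CPM (94.7 to 112) in WT cells, with a UMI in 0.927% of PKA and 12.9% of WT cells. The complement gene C3 was at 21.8 CPM in PKA cells and 170 CPM in WT cells. Hspb1, a small heat shock chaperone, was at 97.6 CPM in PKA cells and 334 CPM in WT cells. Chchd10 and Fdx1, which encode mitochondrial proteins, were at 37.4 and 52.7 CPM in PKA cells and 217 and 195 CPM in WT cells. Pgls, of the pentose phosphate pathway, was at 71.2 CPM in PKA cells and 280 CPM in WT cells. The AP-1 gene Jun was past 2-fold lower as well, with 225 CPM in PKA cells and 494 CPM in WT cells, whereas Fos had 342 CPM in PKA cells and 269 CPM in WT cells.

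Among the high genes, Spp1 was 2.24-fold higher, with a log2 ratio of 1.16, and Ltf, which encodes the iron-binding milk protein lactoferrin, was at 688 CPM (666 to 710) in PKA cells and 297 CPM (283 to 312) in WT cells. Bglap3, an osteocalcin-related gene on chromosome 3 (88368616 to 88372743), was at 656 CPM in PKA cells and 207 CPM in WT cells. Scgb2b27 was at 638 CPM in PKA cells and 224 CPM in WT cells, below its 10107 and 6230 CPM in Luminal Progenitor 2 cells of the PKA and WT libraries. Cxcl1 was 2.73-fold higher in PKA cells (403 CPM in PKA, 148 CPM in WT). In Csf3-positive cells Cxcl1 had a log2 ratio of 1.37, against 1.39 here. Ly6a, the stem cell antigen Sca-1, was at 285 CPM in PKA cells and 112 CPM in WT cells. The thiol oxidase gene Qsox1 was at 374 CPM in PKA cells and 163 CPM in WT cells.

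**Figure D4:**
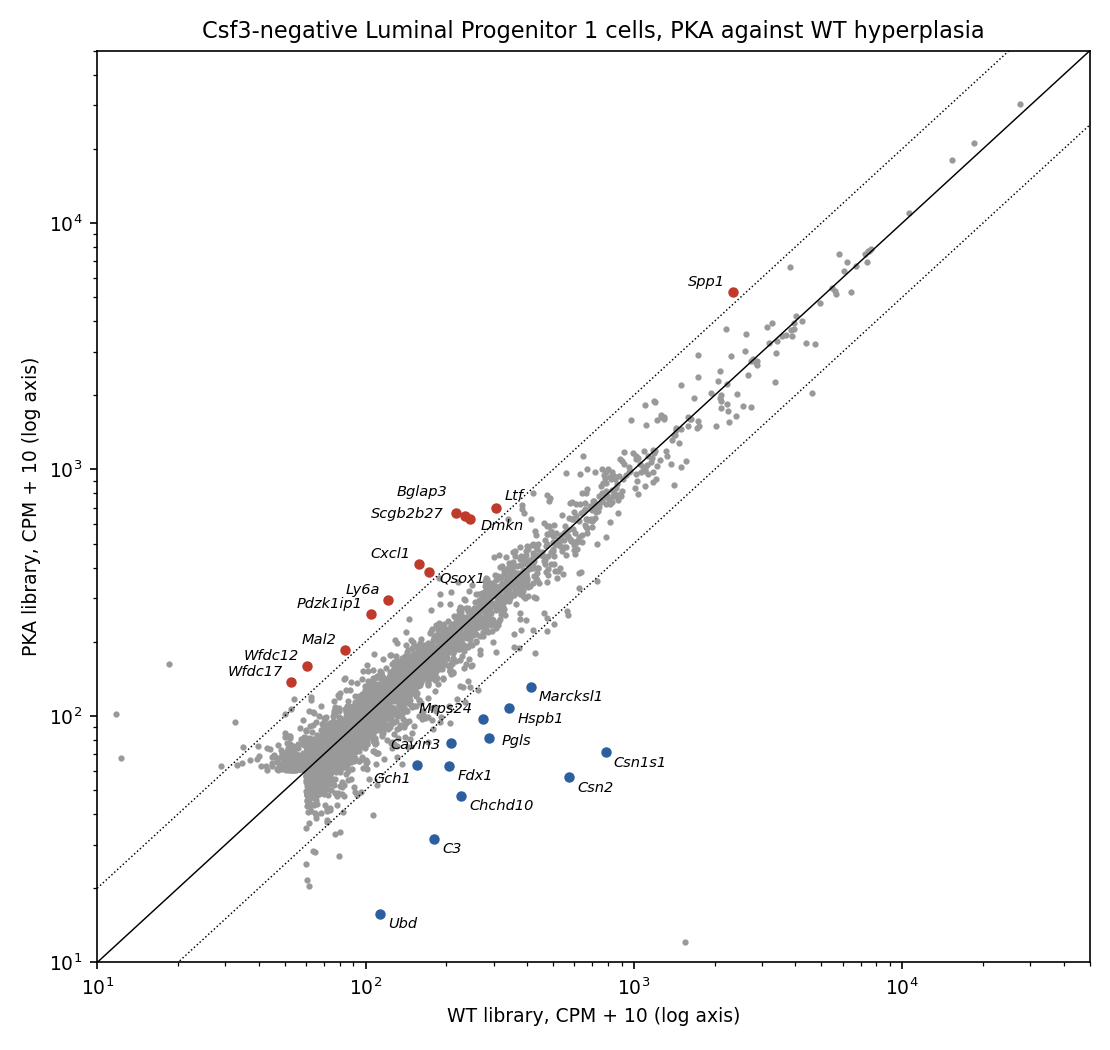
Level of each gene in Csf3-negative Luminal Progenitor 1 cells, as CPM + 10 on log axes, in the PKA library (vertical) and the WT library (horizontal), for 3347 genes. The solid line marks equal levels and the dotted lines 2-fold; red points are the 12 highest and blue points the 12 lowest named genes, with Csn1s1, Csn2 and Ubd the farthest below among the named genes.

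List medians were small. Of all 3347 genes compared, 1568 were above 0 and 1779 below 0 in PKA cells. All 20 measured interferon response genes were above 0 in PKA cells, with a median log2 ratio of 0.36 and 1, Ly6a, past 2-fold. Isg15, a ubiquitin-like protein induced by interferon, was at 679 CPM in PKA cells and 374 CPM in WT cells, and was seen at 2000 UMIs in 48.5% (45.86 to 51.15) of PKA and 32.1% (29.67 to 34.61) of WT cells. Irf7, the transcription factor that amplifies interferon, was at 781 CPM in PKA cells and 464 CPM in WT cells. The interferon list median was 0.33 in Csf3-positive and 0.43 in Luminal Progenitor 2 cells, and -0.23 in Mature Luminal and -0.09 in Basal cells. The genes of antigen presentation lay the other way. Of 16 measured genes for MHC class I and peptide loading, 15 were below 0 with a median of -0.23, and H2-Q7 was past 2-fold lower. The median of this list was -0.34 in Csf3-positive and -0.40 in Basal cells, but 0.04 in Luminal Progenitor 2 and 0.005 in Mature Luminal cells. B2m, the light chain of MHC class I, was at 3216 CPM in PKA cells and 4710 CPM in WT cells.

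The luminal progenitor markers had a median of 0.21, with 15 of 18 above 0 and Spp1 and Ltf past 2-fold. Among them Cd14 had a log2 ratio of -0.20, Elf5 0.19 and Aldh1a3 0.61. The milk list had a median of -0.32, with 8 of 11 below 0 and Csn1s1, Csn2 and Csn1s2a past 2-fold lower. The acute phase list had a median of 0.23 and was mixed, with Saa1 at 0.81, Saa2 at 0.75 and Ltf past 2-fold higher, and C3 and Hp past 2-fold lower. Of 13 genes for endoplasmic reticulum folding and the unfolded protein response 12 were below 0 with a median of -0.21, and of 24 nuclear genes for oxidative phosphorylation 19 were below 0 with a median of -0.17, none of either list being past 2-fold. The folding list had medians of -0.07 in Csf3-positive, -0.40 in Mature Luminal and -0.26 in Basal cells. In Luminal Progenitor 2 cells its median was 0.17, with 11 of 15 genes above 0, against 1878 of all 3535 genes. The NF-kB response list had a median of -0.10 with none of 14 past 2-fold, and it was 0.10 when only genes of at least 100 CPM were taken.

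Of the PKA pathway itself, 4 subunit and inhibitor genes and 6 CREB target genes outside AP-1 were measured and none was past 2-fold. With 0.627% of all genes higher and 1.14% lower, so few genes do not set the pathway apart from the rest. Prkar1a, the regulatory subunit gene of type I PKA, was at 239 CPM in PKA cells and 271 CPM in WT cells, and Prkar2a at 64.1 and 51.7 CPM. The catalytic subunit gene Prkaca was at 35.0 CPM in PKA cells and 26.9 CPM in WT cells, below the minimum for the comparison. None of the 18 S phase or 18 G2/M genes reached 50 CPM in either library. The S phase genes summed to 140 CPM (130 to 150) in PKA cells and 203 CPM (191 to 216) in WT cells.

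In the remaining lists few genes were past 2-fold. Hspb1 was the 1 of 8 heat shock chaperones (median -0.30) and Phlda3 the 1 of 5 p53 targets (-0.22) past 2-fold lower, Jun the 1 of 16 immediate early and AP-1 genes (0.07) past 2-fold lower, and Cxcl1 the 1 of 5 chemokine and cytokine genes (-0.16) past 2-fold higher. None was past 2-fold among 13 mammary lineage transcription factors (median 0.11, 11 above 0), 15 luminal keratin and surface genes (-0.04), 9 genes of a list of WAP-domain proteins and protease inhibitors that does not hold Wfdc12 and Wfdc17 (-0.13), 9 STAT, SOCS and C/EBP genes (0.05), 11 glycolysis genes (0.09), 11 fatty acid and cholesterol genes (0.05) or 17 glutathione and peroxide genes (-0.13). In each of the lists of cyclases and phosphodiesterases, EGF receptor family, Notch pathway, mature luminal markers and basal markers 2 genes were measured, none past 2-fold. No gene was measured of the lists for MHC class II, fibroblasts, endothelial cells, macrophages, lymphocytes, adipocytes or erythrocytes.

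**Figure D5:**
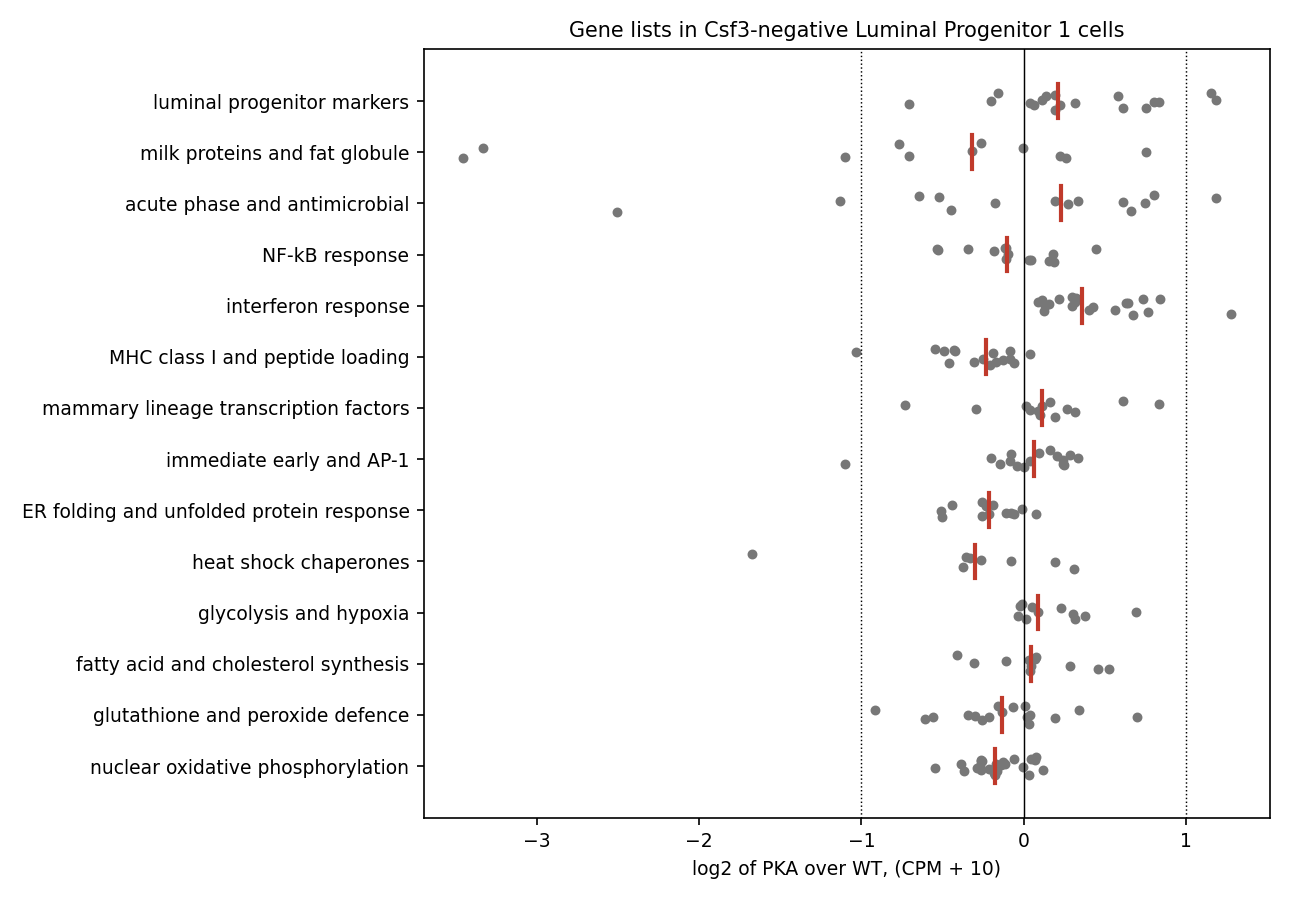
Log2 ratio of PKA over WT, as (CPM + 10), for the measured genes of 14 lists in Csf3-negative Luminal Progenitor 1 cells; each point is a gene, red bars are list medians and dotted lines mark 2-fold. The interferon response points all lie above 0 with a median of 0.36, and Csn1s1 and Csn2 are the 2 points below -3 in the milk list.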

How the data were processed

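Single-cell RNA libraries of PKA and WT hyperplasia, 1 each, were used; the tumor libraries only entered the total of cells. The authors deposited unnormalized UMI counts for each gene in each barcode. GRCm38/mm10, STAR 2.5.3a, Cell Ranger and featureCounts (Subread 1.6.0) are listed in the submitters' processing notes. The authors' per-cell tables give a class, assigned with Monocle2 from marker genes per the series design, and the fraction of mitochondrial UMIs, printed here as a percent. Of 4858 PKA and 5179 WT barcodes, 1040 and 1371 without a class were left out; which filter did so was not given in the sources used here. No doublet caller was run: annotated cells had at most 2899 PKA and 2985 WT genes, and cells above the 95th percentile of UMIs were left out as an alternative.

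UMIs were summed per group and scaled to CPM, with exact Poisson, conditional binomial or Clopper-Pearson 95% intervals, which cover counting error only. A gene was compared if its higher group reached 50 CPM, with 10 CPM added, against a 2-fold threshold. Named genes were the 12 highest and lowest at 100 CPM or more (class contrasts: by the smaller log2 ratio of both libraries), and the 12 most variable at a mean of 0.2 thinned UMIs or more, leaving out mitochondrial, ribosomal protein, haemoglobin, predicted, Xist, Tsix, Y-linked and non-epithelial marker genes; members of 35 gene lists could be named too. The cells, genes and lists were chosen with earlier results of these data known. Positions are from the GRCm38 annotation, promoters from RefSeq. The steps were run on simulated Poisson counts with known changes. These counts held no variation beyond counting and no shift of the total by changed genes, so neither was covered. Alternatives were TMM factors (edgeR 4.0.16, R 4.3.3), other totals, cell filters, minimums, added CPM and thinning. Other tools were pandas 2.3.3, SciPy 1.17.1, NumPy 2.4.6 and matplotlib 3.10.9 under Python 3.11.15.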

Additional observations from a re-analysis of the deposited data

Results flagged for a closer look

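The gene AW112010 stood out because its direction between PKA and WT differed between cell classes. It had 53.7 CPM in PKA and 127 CPM in WT Csf3-negative cells, a log2 ratio of -1.10, whereas Mature Luminal cells had 6222 CPM in the PKA library and 2166 CPM in the WT library, a log2 ratio of 1.518. Wfdc12, a WAP-domain gene, did the reverse, with 149 CPM in PKA and 50.8 CPM in WT Csf3-negative cells (1.39) and 28.9 CPM in PKA and 3184 CPM in WT Mature Luminal cells, a log2 ratio of -6.358 from 22 and 1223 UMIs. With 1 library per group, neither difference between classes was tested.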

How the results depend on the processing

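No paired analysis was possible because each group had 1 library. Over the alternatives, 81 of 99 counts and shares, 208 of 219 list medians and 1748 of 1968 values of named genes stayed close to those reported, and no gene of the naming rule changed sign. With TMM factors, 95 genes were higher and 39 lower past 2-fold against Luminal Progenitor 2, 508 and 215 against Mature Luminal, and 304 higher against Basal cells. With at least 100 CPM in the higher group, fewer genes being compared, 208 were higher and 189 lower against Mature Luminal and 127 and 246 against Basal cells. Against Csf3-positive cells, 2 genes in place of 1 were higher with TMM factors, with cells of at least 2000 UMIs only and with 1 CPM added. The share of Luminal Progenitor 1 cells with 0 Csf3 UMIs was 68.35% in PKA and 69.32% in WT cells with no thinning, 76.79% and 77.28% at 1000 UMIs and 65.95% and 68.38% at 3000 UMIs. Medians of PKA over WT near 0 changed sign for the WAP-domain list (0.0461 with the mean of each cell's CPM, 0.0304 over all Luminal Progenitor 1 cells, against -0.13), the NF-kB response list (0.10 at 100 CPM, against -0.10) and the chemokine list (0.0572 over all Luminal Progenitor 1 cells, against -0.16), and the STAT list went to -0.06 at 100 CPM, against 0.05; the cause was not tested. Leaving out cells whose barcodes occur in both libraries was added after seeing the data.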

Other observations

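Some genes outside the naming rule, chosen after their values were seen, also differed between PKA and WT in the Csf3-negative cells. Gt(ROSA)26Sor, the non-coding transcript of the Rosa26 locus, was at 92.2 CPM in PKA cells and 40.0 CPM in WT cells, and at 89.2 and 32.0 CPM in Luminal Progenitor 2 cells of the PKA and WT libraries. Hey1, a Notch target, was at 56.1 CPM in PKA cells and 27.1 CPM in WT cells, but at 30.2 and 29.2 CPM in Luminal Progenitor 2 cells of the PKA and WT libraries. The ribosomal-protein-like gene Rps3a3 was at 2.05 CPM in PKA cells and 1539 CPM in WT cells. It was at 2.27 and 1395 CPM in Luminal Progenitor 2 cells of the PKA and WT libraries, so its difference was not limited to the Csf3-negative cells.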
